A study of Mus musculus with 6 samples.

Results

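Hepatocyte carriers for bile acids and organic anions were examined in whole liver: 10 genes, taken by symbol from the 17119 symbols of the count table. The uptake genes were Slc10a1, Slco1a1, Slco1a4, Slco1b2 and Slco2b1, and the export genes were Abcb11, Abcb4, Abcc2, Abcc3 and Atp8b1. RNA-seq was made from 6 mouse liver samples in 2 groups of 3, and the labels tie no sample to a named animal. The genotype of the heterozygous livers was Clec4f-iCre;Cebpbfl/+, in which iCre under the Clec4f promoter removes 1 allele of Cebpb in Kupffer cells, the macrophages that live in liver sinusoids. The wild-type livers came, by the series design, from littermates of the genotype Clec4f-iCre;Cebpb+/+, which carry the same iCre and 2 intact alleles. All mice had received HFHCD, a diet rich in fat and cholesterol, for 12 weeks, and there was no group on ordinary chow. Age, strain and sex are not in the labels used here. Y-linked genes were measured in all 6 libraries (4 genes summing to between 98.6 and 115 CPM, the count scaled to a common library total). The genotype field of replicates 2 and 3 names the Cre gene with a number that rises with the replicate. The series design names Clec4f throughout, and it was followed.

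As background, hepatocytes take bile acids from portal blood across their basolateral membrane and pump them across the canalicular membrane into bile. The sodium-dependent carrier NTCP (Slc10a1) brings in conjugated bile acids, and carriers of the OATP family (the Slco genes) bring in other bile acids, bilirubin, hormones and drugs. At the canalicular side BSEP (Abcb11) is the bile salt pump, MDR2 (Abcb4) moves phosphatidylcholine into bile, MRP2 (Abcc2) exports glucuronide and glutathione conjugates, and the flippase ATP8B1 keeps the lipid order of the membrane. MRP3 (Abcc3) exports conjugates back to blood. The nuclear receptor FXR (Nr1h4) senses bile acids and activates Abcb11.

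Library totals ran from 16895322 to 17750755 counts, and levels are CPM scaled by TMM factors. The abundant hepatocyte genes tested (7 of 8 listed, Alb among them) summed to between 97098 and 132309 CPM in every library, which fits the tissue label. Wild-type replicate 1 stood apart. Its 17 acute phase genes summed to 70011 CPM, against 26697 and 35809 CPM in the other wild-type libraries, and 23057, 35839 and 23931 CPM in the heterozygous replicates. Cebpb itself, the targeted gene, measured 204, 498 and 269 CPM in heterozygous livers and 506, 308 and 340.4 CPM in wild-type livers. The groups overlapped, and since many liver cell types express Cebpb, its level in whole liver is a weak check of the labels. Clec4f measured 4.31, 4.97 and 3.90 CPM in heterozygous livers, against 48.6, 38.5 and 5.42 CPM in wild-type livers, so wild-type replicate 3 lay near the heterozygous level.

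The comparison of heterozygous with wild-type livers showed no transporter past an adjusted p of 0.05 in edgeR (0 of 10, where 0.582% of the 12706 tested genes passed). The conjugate pump gene Abcc2 was the member whose groups did not overlap, 1.40-fold higher in heterozygous livers. Fold changes were positive for 9 of 10 members, with a median log2 fold change of 0.30, whereas 51.0% of all tested genes were positive, with a median of 0.00. Slco2b1 was the member with a negative value. Slc10a1, the main bile acid carrier, averaged nearly the same level in both groups. Members share their libraries, so they are not independent observations of the genotype, and without wild-type replicate 1 the members' median was 0.18 with 7 of 10 positive.

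The other call rules gave few members as well. At an unadjusted edgeR p under 0.05, Slco1a1 and Abcc2 were counted, both higher. That is 2 of 10, where 13.2% of tested genes met this rule in either direction and 4.20% were higher. DESeq2 called 1 of 10 members, Abcc2, where it called 4.20% of genes, and limma-voom called 0 of 10, where it called 0.362% (with robust eBayes, a setting taken after the ordinary version had called 0 genes). Groups that did not overlap with the heterozygous livers higher were found for 1 of 10 members and for 7.05% of tested genes (18.4% in either direction). A count of 1 or 2 among 10 genes that share their libraries is not read as a property of the transporters.

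**Figure D1:**
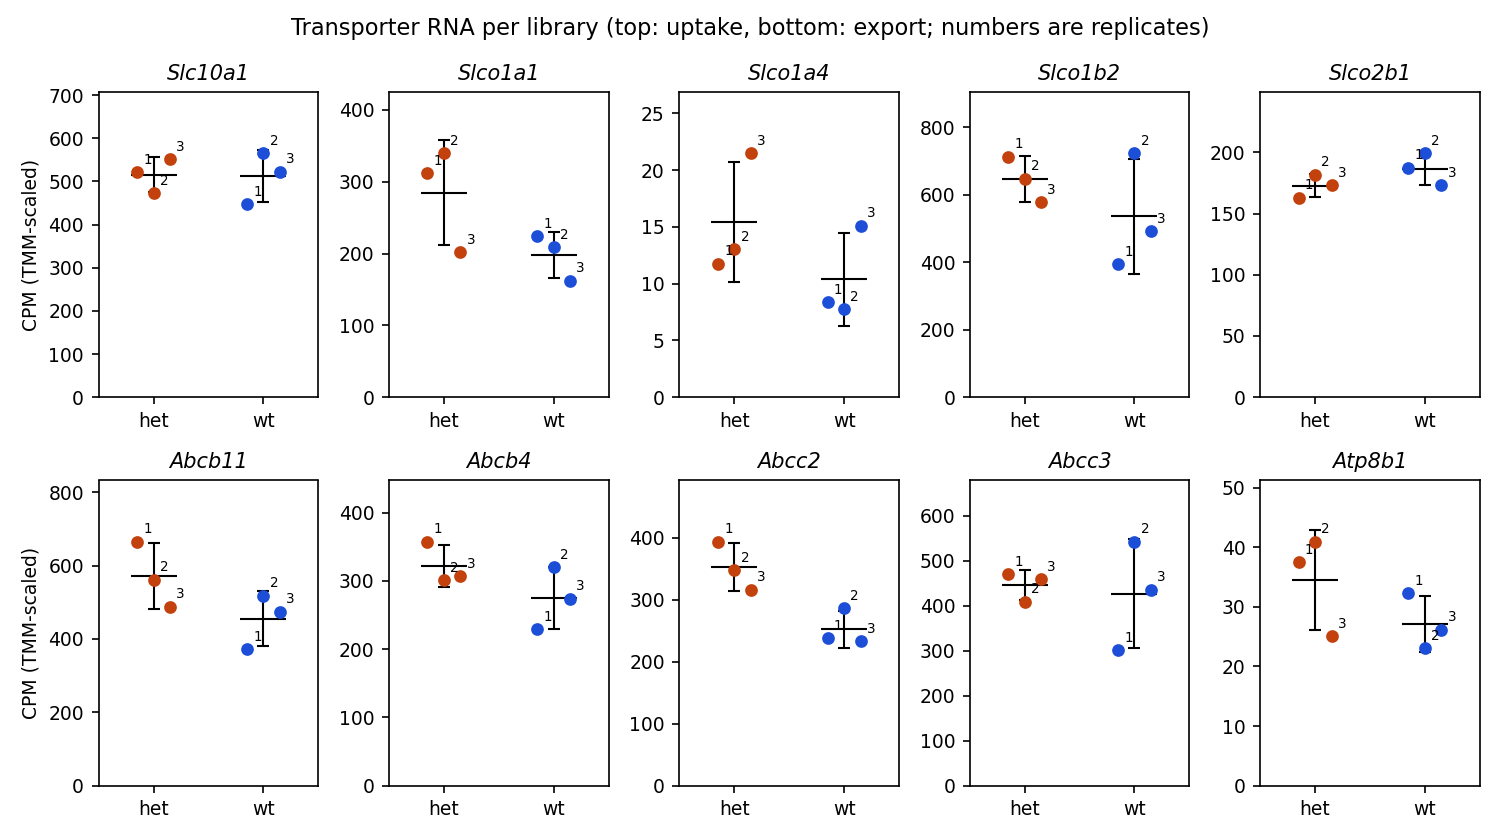
RNA level of each transporter in CPM (vertical axes, starting at 0, a scale of its own per gene) in 3 heterozygous (het) and 3 wild-type (wt) livers; points are libraries with their replicate numbers, horizontal bars the mean and error bars the SD. The groups overlap for every gene except Abcc2, which lies between 316 and 394 CPM in heterozygous livers and between 233 and 286 CPM in wild-type livers.

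Put on a common scale, CPM per kilobase of exon, the transporters spanned a wide range. Slc10a1 led with 234 ± 18.3 CPM per kb in heterozygous livers and 233 ± 27.2 CPM per kb in wild-type livers (SD, n = 3 each). Slco1b2, the rodent counterpart of the human hepatic OATP1B carriers, followed with 195 ± 20.4 and 162 ± 51.3 CPM per kb in heterozygous and wild-type livers, and its libraries overlapped those of Slc10a1 in both groups. The bile salt pump gene Abcb11 came next at 111 ± 17.4 CPM per kb in heterozygous livers and 88.4 ± 14.6 CPM per kb in wild-type livers, below every library of Slco1b2 in its group. In wild-type livers Abcb11 overlapped Abcc3, and Abcc3 overlapped Abcb4, so this part of the order is not resolved. In heterozygous livers Abcc3, Abcb4 and Slco1a1 overlapped as neighbours. Abcc2 reached 43.9 ± 4.86 CPM per kb in heterozygous livers, above all libraries of Slco2b1 there (32.5 ± 1.78), but 31.4 ± 3.67 CPM per kb in wild-type livers, where it overlapped Slco2b1 (35.2 ± 2.47). Atp8b1 (5.14 ± 1.24 and 4.04 ± 0.70) and Slco1a4 (4.04 ± 1.39 and 2.72 ± 1.07 CPM per kb in heterozygous and wild-type livers) closed the order and overlapped each other. Exon lengths came from an annotation of another build than the counts, so the levels per kb are approximate.

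Among the uptake genes, Slc10a1 measured 522, 472 and 552 CPM in heterozygous livers and 447, 566 and 522 CPM in wild-type livers. The groups covered nearly the same range, with means of 515 ± 40.2 CPM in heterozygous and 512 ± 59.8 CPM in wild-type livers (log2 fold change 0.01 ± 0.13 SE, with a 95% interval from −0.28 to 0.30 and an adjusted p of 0.990 in edgeR). The interval leaves room for a change of up to 1.23-fold upward, or down to 0.823 of the wild-type level. Its direction turned when wild-type replicate 1 or heterozygous replicate 3 was left out, with values from −0.06 to 0.09 over all alternatives.

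Slco1a1 encodes OATP1A1, a carrier of sulfated steroids and bile acids whose liver expression is higher in male mice. Its level was 312, 340.0 and 201 CPM in heterozygous livers and 224, 209 and 162 CPM in wild-type livers. Heterozygous replicate 3 fell below wild-type replicates 1 and 2, and the other heterozygous libraries lay above all wild-type ones. The means were 284 ± 73.2 CPM in heterozygous and 198 ± 32.3 CPM in wild-type livers (log2 fold change 0.52 ± 0.21, a fold of 1.43 with a 95% interval from 1.03 to 1.99, unadjusted p = 0.0354 and adjusted p = 0.326 in edgeR). It was 0.37 without heterozygous replicate 2 and 0.72 without heterozygous replicate 3. Male-biased liver genes, given beside it because the gene belongs to that class, were positive for 7 of 9 members with a median log2 fold change of 0.22. EdgeR called 0 of them (2 at an unadjusted p under 0.05, both higher) and DESeq2 called 2. Over all tested genes, 4.20% were higher at that unadjusted p in edgeR, and DESeq2 called 4.20% in either direction. Their summed level was 7430, 8452 and 5438 CPM in heterozygous livers and 6572, 5805 and 5855 CPM in wild-type livers, and their part in the Slco1a1 value was not tested. Of 11 female-biased liver genes listed, 1 was tested, Cyp2b9, also positive. It measured 0.233, 2.73 and 6.19 CPM in heterozygous livers and 0.183, 0 and 0.766 CPM in wild-type livers (edgeR adjusted p = 0.395).

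Slco1a4 encodes OATP1A4, which also carries cardiac glycosides and is induced through the xenobiotic receptors PXR and CAR. It had the fewest reads of the 10 genes, 137 to 375 per library. It stood at 11.8, 13.0 and 21.5 CPM in heterozygous livers and at 8.36, 7.73 and 15.1 CPM in wild-type livers. In each group replicate 3 was the high one, and the spread within groups was the widest of the 10 members (coefficient of variation 34.3% in heterozygous and 39.3% in wild-type livers). The log2 fold change of 0.57 ± 0.33 had a 95% interval from −0.20 to 1.34 (edgeR adjusted p = 0.546), and it was 0.25 without heterozygous replicate 3 and 0.94 without wild-type replicate 3. The Slco1a genes resemble each other in sequence, and the sources used here do not say how reads that match several of them were counted. The close relatives Slco1a5 and Slco1a6 had at most 1 read per library.

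Slco1b2 showed 712, 647 and 577 CPM in heterozygous livers and 393, 723 and 491 CPM in wild-type livers. Wild-type replicate 2 was the highest of all libraries and wild-type replicate 1 the lowest, so the wild-type group enclosed the heterozygous one. The means of 646 ± 67.6 CPM in heterozygous and 536 ± 169.6 CPM in wild-type livers gave a log2 fold change of 0.27 ± 0.21 (95% interval −0.22 to 0.76, edgeR adjusted p = 0.690). Slco2b1 encodes OATP2B1, a carrier of steroid sulfates found in several tissues and also in macrophages. It was the steadiest member, with 163, 182 and 173 CPM in heterozygous livers and 187, 199.5 and 173 CPM in wild-type livers. Its log2 fold change was −0.11 ± 0.11 (95% interval −0.36 to 0.13, edgeR adjusted p = 0.754).

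Macrophages also express Slco2b1, so their markers are given beside it. Over all tested genes edgeR called 0.582%. Kupffer cell markers were negative for 7 of 8 tested genes (median log2 fold change −1.14), of which 1, C1qa, was called lower in edgeR. They summed to between 159 and 193 CPM in heterozygous livers, against 291 to 584 CPM in wild-type livers. Monocyte and recruited macrophage markers were negative for 7 of 7, of which 2, Ccr2 and Lyz2, were called lower in edgeR. They summed to between 93.5 and 126 CPM in heterozygous livers, against 250 to 413 CPM in wild-type livers. Cd163, listed as a Kupffer cell marker but not among the tested genes, had at most 19 reads in a library. Fewer cells of a type and less RNA per cell cannot be told apart in such bulk samples. The part of these cells in the Slco2b1 level was not tested.

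**Figure D2:**
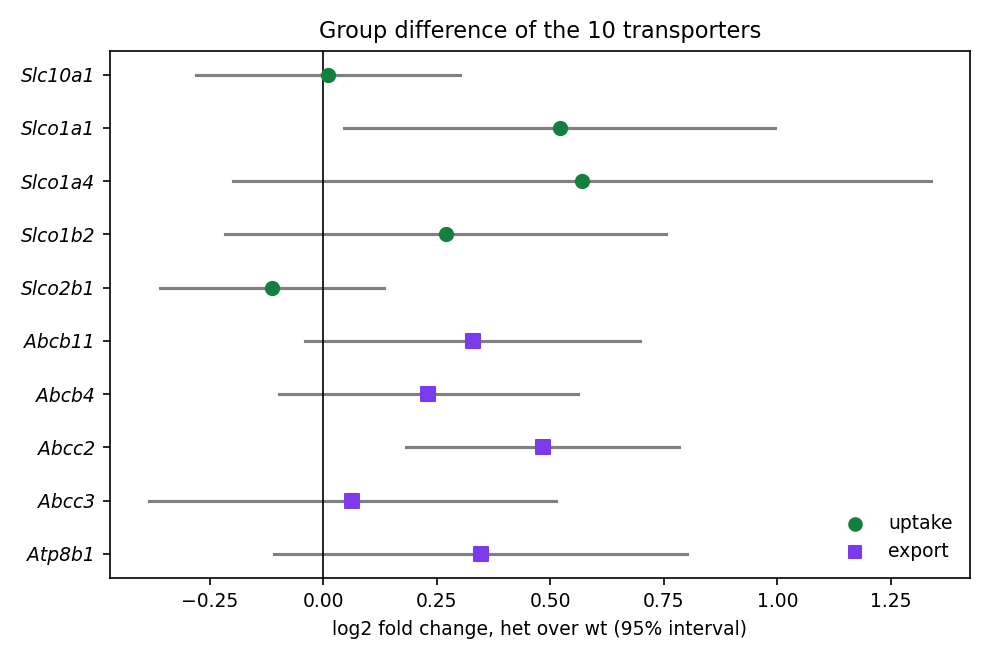
Log2 fold change of heterozygous over wild-type livers (horizontal axis) for each transporter, with 95% intervals from the edgeR quasi-likelihood fit; circles are uptake genes and squares export genes. The intervals of Slco1a1 (fold 1.03 to 1.99) and Abcc2 (log2 0.18 to 0.78) lie above 0 before adjustment over all genes, and those of the other 8 transporters include 0.

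Among the export genes, Abcc2 measured 394, 347 and 316 CPM in heterozygous livers and 238, 286 and 233 CPM in wild-type livers. Every heterozygous library lay above every wild-type library. The means were 352 ± 39.0 CPM in heterozygous and 252 ± 29.4 CPM in wild-type livers (log2 fold change 0.48 ± 0.13, with a 95% interval from 0.18 to 0.78 and an edgeR adjusted p of 0.139). DESeq2 gave 0.49 with an adjusted p of 0.0312, and over all 16 alternatives the adjusted p ran from 0.0312 to 0.483. The value stayed between 0.41 and 0.59 in each of these fits. The lowest value was found without heterozygous replicate 1 and the highest without wild-type replicate 2.

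Abcb11 stood at 666, 561 and 488 CPM in heterozygous livers and at 372, 518 and 474 CPM in wild-type livers. Heterozygous replicate 3 lay below wild-type replicate 2, and the means of 572 ± 89.5 CPM in heterozygous and 455 ± 74.9 CPM in wild-type livers gave a log2 fold change of 0.33 ± 0.16 (95% interval −0.04 to 0.70, edgeR adjusted p = 0.454). Abcb4 lay at a lower level, with 358, 301 and 307 CPM in heterozygous livers and 229, 320.1 and 274 CPM in wild-type livers. Here heterozygous replicates 2 and 3 both lay below wild-type replicate 2. Its log2 fold change was 0.23 ± 0.15 (95% interval −0.10 to 0.56, edgeR adjusted p = 0.579).

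Abcc3, the exporter toward blood, measured 469.9, 409 and 459 CPM in heterozygous livers and 301, 543 and 436 CPM in wild-type livers. As for Slco1b2, the wild-type libraries were the extremes on both sides. The log2 fold change was 0.06 ± 0.20 (95% interval −0.38 to 0.51, edgeR adjusted p = 0.948), and it turned to −0.11 without wild-type replicate 1. Atp8b1 measured 37.5, 40.9 and 25.1 CPM in heterozygous livers and 32.3, 23.0 and 26.2 CPM in wild-type livers, with heterozygous replicate 3 inside the wild-type range (log2 fold change 0.35 ± 0.20, with a 95% interval from −0.11 to 0.80 and an edgeR adjusted p of 0.535). Cholangiocyte markers, which matter for Abcc3 because bile duct cells also express it, summed to between 61.3 and 99.5 CPM in heterozygous livers and between 107 and 155 CPM in wild-type livers. That difference was carried by Spp1, which macrophages also express (48.5, 57.9 and 81.5 CPM in heterozygous livers and 126, 88.1 and 99.9 CPM in wild-type livers). Without Spp1 the sums were 12.8, 30.1 and 17.95 CPM in heterozygous livers and 28.7, 18.8 and 22.4 CPM in wild-type livers, and the groups overlapped. Of the 6 tested, 5 were negative, with 0 calls in edgeR (1 at an unadjusted p under 0.05) and 1 in DESeq2, Spp1 in both cases. Over all tested genes, 13.2% had an unadjusted p under 0.05 in edgeR, and DESeq2 called 4.20%. Sox9 was the largest part of the sums without Spp1, with 25.0 CPM in heterozygous replicate 2. The defining markers Krt19, Krt7 and Epcam stayed under 4 CPM in every library. Among them Krt7 did not overlap, with 0.874, 0.182 and 0.803 CPM in heterozygous livers and 1.28, 1.52 and 1.20 CPM in wild-type livers (edgeR adjusted p = 0.388). Over all tested genes, 18.4% did not overlap in either direction. The part of bile duct cells in the Abcc3 level was not tested.

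Abcb11 and Abcb4 were the pair of members that deviated most alike from library to library. The root mean square difference of log2 CPM, each gene centred on its mean over the 6 libraries, was 0.09 between them, the smallest of the 45 pairs of members. It was 0.14 between Abcb11 and Abcc2, between Slco1b2 and Abcb4 and between Abcb4 and Abcc3, 0.15 between Slco1b2 and Abcb11 and 0.16 between Abcb4 and Abcc2. Slc10a1 lay at 0.15 from Abcb4 and at 0.23 from Abcb11. The 250 bases upstream of the start are shown for Abcb11 and Abcb4 as the closest pair, for Abcc2 as the member whose groups did not overlap, and for Slc10a1 as the most abundant member per kb. The sequences are RefSeq's on build GRCm38.p6, read 5′ to 3′ on the gene's strand, and Slc10a1 has 2 annotated starts. Capitals mark matches, on either strand, to the nuclear receptor hexamer AGGTCA, the C/EBP motif TTGCNNAA, the HNF1 hexamer GTTAAT or the TATA box TATAAA. They lie at chr2:69342617-69342866 (minus strand, Abcb11), chr5:8893471-8893720 (plus strand, Abcb4), chr19:43782058-43782307 (plus strand, Abcc2), chr12:80968706-80968955 and chr12:80968080-80968329 (minus strand, Slc10a1, upstream and downstream start).
Abcb11: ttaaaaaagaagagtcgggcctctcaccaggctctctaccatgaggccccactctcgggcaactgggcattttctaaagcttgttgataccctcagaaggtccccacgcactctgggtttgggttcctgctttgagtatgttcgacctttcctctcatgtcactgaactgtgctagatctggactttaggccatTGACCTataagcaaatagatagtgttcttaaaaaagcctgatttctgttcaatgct
Abcb4: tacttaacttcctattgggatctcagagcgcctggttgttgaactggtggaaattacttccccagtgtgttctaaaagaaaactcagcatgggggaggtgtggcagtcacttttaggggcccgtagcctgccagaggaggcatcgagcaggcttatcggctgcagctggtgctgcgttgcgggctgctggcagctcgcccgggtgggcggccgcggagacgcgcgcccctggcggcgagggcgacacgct
Abcc2: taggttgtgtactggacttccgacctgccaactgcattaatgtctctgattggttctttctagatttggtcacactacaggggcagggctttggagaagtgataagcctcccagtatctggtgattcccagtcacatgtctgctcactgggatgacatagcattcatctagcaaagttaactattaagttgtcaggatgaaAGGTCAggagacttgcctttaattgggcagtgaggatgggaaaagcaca
Slc10a1, upstream start: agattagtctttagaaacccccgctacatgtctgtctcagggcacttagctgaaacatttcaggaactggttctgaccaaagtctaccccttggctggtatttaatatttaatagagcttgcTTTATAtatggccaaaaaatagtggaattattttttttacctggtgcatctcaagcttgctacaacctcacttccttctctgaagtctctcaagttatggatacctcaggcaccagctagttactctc
Slc10a1, downstream start: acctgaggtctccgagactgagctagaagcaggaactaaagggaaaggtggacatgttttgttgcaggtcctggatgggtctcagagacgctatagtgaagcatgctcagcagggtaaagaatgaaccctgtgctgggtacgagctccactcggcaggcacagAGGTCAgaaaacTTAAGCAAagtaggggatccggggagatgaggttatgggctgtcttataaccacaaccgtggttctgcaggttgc

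In these windows AGGTCA was found at 56 bases before the start of Abcb11, at 49 bases before that of Abcc2 and at 87 bases before the downstream start of Slc10a1. It was not found in the Abcb4 window. The C/EBP motif was found in the window of the downstream start of Slc10a1, at 75 bases. The TATA box was found in that of its upstream start, at 128 bases, and GTTAAT in none of the 5 windows. Of 32851 RefSeq windows of the same 250 bases, 4607 hold AGGTCA, 3142 the C/EBP motif, 2113 GTTAAT and 4063 the TATA box (14.02%, 9.56%, 6.43% and 12.4%). Windows of 8 of the 10 members were searched. Of those not shown, Slco1b2 held AGGTCA at 81 bases, GTTAAT at 66 bases and the TATA box at 234 and 227 bases. Slco1a1 held AGGTCA at 134 and 24 bases and the TATA box at 209 and 99 bases. No motif was found for Slco1a4 or Slco2b1.

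Uptake was then set against export within each library, which no scaling of libraries can change. The 5 uptake genes summed to 1721, 1654 and 1525 CPM in heterozygous livers and to 1260.2, 1705 and 1364 CPM in wild-type livers. The 5 export genes summed to 1924, 1659.8 and 1595 CPM in heterozygous livers and to 1173, 1690.2 and 1443 CPM in wild-type livers. The ratio of uptake to export was 0.894, 0.997 and 0.956 in heterozygous livers and 1.07, 1.01 and 0.945 in wild-type livers, so the groups overlapped. The mean log2 ratio was −0.08 ± 0.08 in heterozygous livers and 0.01 ± 0.09 in wild-type livers (SD, n = 3 each), a difference of −0.09 that is about the size of the spread. Per kilobase of exon, uptake exceeded export in all 6 libraries, with log2 ratios of 0.71 ± 0.08 in heterozygous livers and 0.81 ± 0.08 in wild-type livers.

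The main carriers of conjugated bile acids into and out of the hepatocyte were also set against each other. The ratio of Slc10a1 to Abcb11 CPM was 0.784, 0.841 and 1.13 in heterozygous livers and 1.20, 1.09 and 1.10 in wild-type livers. Heterozygous replicates 1 and 2 had more Abcb11 than Slc10a1 reads, and heterozygous replicate 3 lay within the wild-type range. On the log2 scale the SD of this ratio was 0.28 in heterozygous livers and 0.08 in wild-type livers (n = 3 each). Within export, the ratio of Abcc2, toward bile, to Abcc3, toward blood, was 0.838, 0.850 and 0.689 in heterozygous livers and 0.788, 0.527 and 0.535 in wild-type livers, where replicate 1 overlapped the heterozygous values. Within uptake, the ratio of Slco1b2 to Slc10a1 was 1.36, 1.37 and 1.05 in heterozygous livers and 0.879, 1.28 and 0.940 in wild-type livers. These ratios are not corrected for gene length. They serve to compare libraries, not genes, and no test was made of them.

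**Figure D3:**
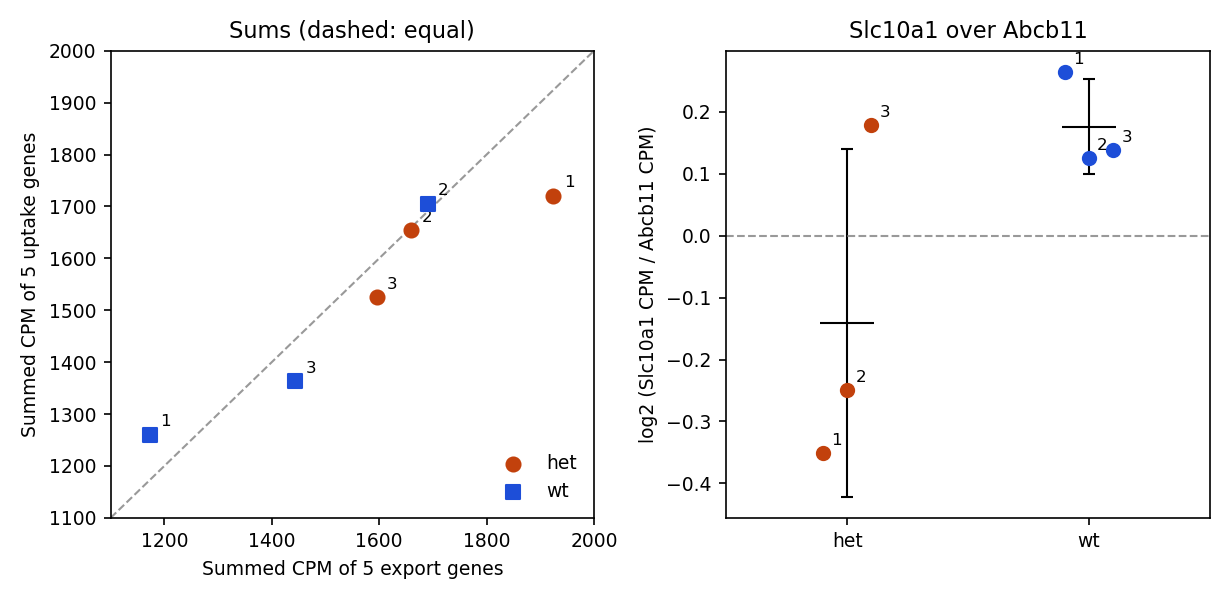
Left, summed CPM of the 5 uptake genes (vertical) against the 5 export genes (horizontal) in each library, with a dashed line of equality; axes do not start at 0, and numbers are replicates. Right, log2 ratio of Slc10a1 to Abcb11 CPM in heterozygous (het) and wild-type (wt) livers with mean and SD; wild-type replicate 1 has the lowest sums (1260.2 and 1173 CPM), and the ratios of heterozygous replicates 1 and 2 lie below the wild-type libraries.

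The transporters also varied between libraries of the same group. Wild-type replicate 1 was the lowest library for 5 of 10 members (Slc10a1, Slco1b2, Abcb11, Abcb4 and Abcc3), and for 24.8% of all tested genes. Its members deviated from their 6-library mean by a median of −0.34 log2 units, −0.19 for uptake and −0.37 for export. Heterozygous replicate 1 stood at the other end, with a median of 0.29 (0.03 for uptake and 0.31 for export). The other heterozygous libraries had medians of 0.12 and 0.03, and wild-type replicates 2 and 3 had 0.08 and −0.10. Reads of the 10 genes made up 0.365%, 0.324% and 0.320% of the heterozygous libraries and 0.225%, 0.353% and 0.290% of the wild-type libraries. The acute phase sum was highest in the library with the lowest transporter sum, wild-type replicate 1, and lowest in the library with the highest, heterozygous replicate 1. The libraries between these did not all keep that order. Heterozygous replicates 2 and 3 had acute phase sums of 35839 and 23931 CPM beside transporter sums of 3314 and 3120 CPM. Wild-type replicates 2 and 3 had 26697 and 35809 CPM beside 3395 and 2807 CPM. The part of the acute phase response in the transporter levels was not tested.

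**Figure D4:**
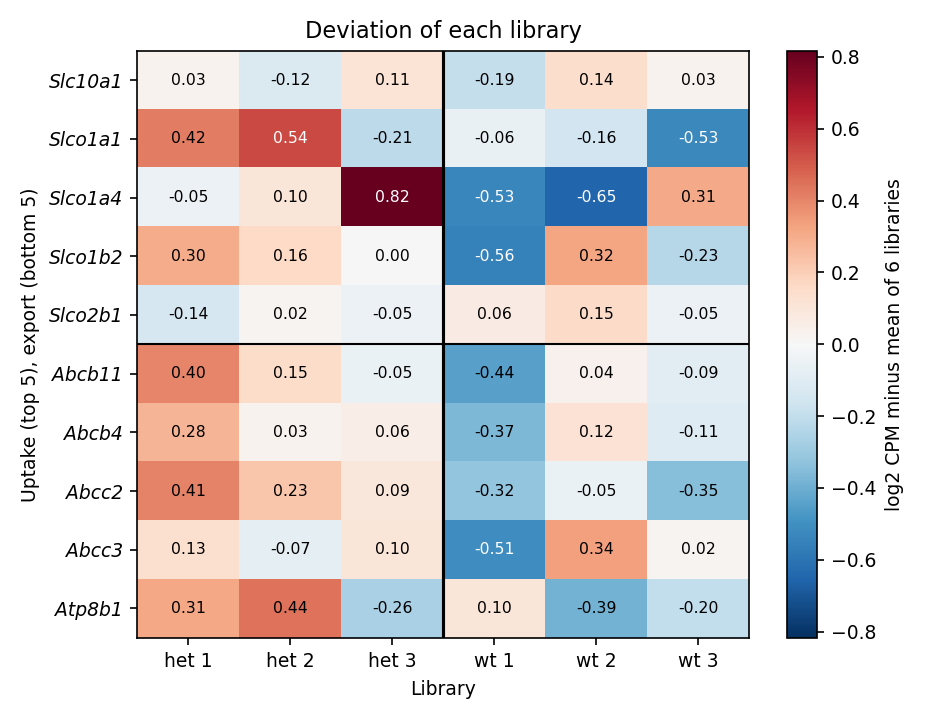
Log2 CPM of each transporter (rows, uptake above export) in each library (columns, heterozygous left and wild-type right) minus the gene's mean over the 6 libraries; red is above and blue below that mean. Wild-type replicate 1 is blue for 8 of 10 genes, down to −0.56 for Slco1b2, and heterozygous replicate 1 is red for 8 of 10.

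The wider pathway gave 0 calls in edgeR in each of 5 further lists, where 0.582% of the 12706 tested genes passed. Beside the counts given for these and later lists, 13.2% of all tested genes had an unadjusted p under 0.05 in edgeR. At that p 4.20% of all tested genes were higher, and DESeq2 called 4.20% in either direction. Among 12 tested uptake carriers outside the members, 8 were positive and 4 negative (median log2 fold change 0.23), with 2 higher and 2 lower at an unadjusted p under 0.05 and 1 called by DESeq2. Those with the smallest p were Slc22a30, an organic anion carrier of the Slc22 family, at 158 ± 14.7 CPM in heterozygous and 104 ± 7.17 CPM in wild-type livers (log2 fold change 0.61 ± 0.11, edgeR adjusted p = 0.0539, DESeq2 adjusted p = 0.000558), Slc10a5 (0.64 ± 0.18), a relative of Slc10a1, and Slco3a1 (−0.47 ± 0.16), an OATP of broad tissue distribution. Among 13 further exporters, 8 were positive and 5 negative (median log2 fold change 0.18), with 4 higher and 3 lower at an unadjusted p under 0.05 and 3 called by DESeq2. Abcg5, a subunit of the sterol exporter of the canaliculus, measured 383 ± 23.4 CPM in heterozygous and 268 ± 17.9 CPM in wild-type livers (0.52 ± 0.11, edgeR adjusted p = 0.0733, DESeq2 adjusted p = 0.00184). Abcc1 (−0.89 ± 0.21) and Abcc5 (−0.76 ± 0.19), exporters of the MRP family with broad tissue distribution, were lower in heterozygous livers in DESeq2 (adjusted p = 0.0259 and 0.0294) and not called in edgeR.

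Transcription factors of the transporter genes were evenly divided, with 9 positive and 11 negative of 20 tested, a median log2 fold change of −0.02, 0 with an unadjusted p under 0.05 in edgeR and 0 called by DESeq2. The bile acid receptor gene Nr1h4 measured 128 ± 14.5 CPM in heterozygous and 111 ± 13.6 CPM in wild-type livers (log2 fold change 0.21 ± 0.13). The smallest p-values belonged to Rxra, the partner receptor of FXR, PXR and CAR (−0.29 ± 0.14, edgeR adjusted p = 0.417), Stat5b, which relays growth hormone (0.31 ± 0.17), and the forkhead factor gene Foxa1 (0.40 ± 0.23). Trafficking and scaffold genes had 8 positive and 5 negative of 13 tested (median log2 fold change 0.20), with 2 higher and 2 lower at an unadjusted p under 0.05 and 1 called by DESeq2. Stx3, a syntaxin of apical membrane fusion, measured 1.45 ± 0.42 CPM in heterozygous and 4.27 ± 1.06 CPM in wild-type livers (−1.55 ± 0.32, edgeR adjusted p = 0.0618, DESeq2 adjusted p = 0.00174). Ezr, the ezrin linker of membrane and actin, gave −0.72 ± 0.23, and Mal2, a protein of hepatocyte transcytosis, 0.38 ± 0.13. The samples are whole liver, and which cells gave the reads of Stx3, Ezr, Abcc1 and Abcc5 was not tested.

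CAR and PXR target enzymes had 4 positive and 4 negative of 8 tested genes, with 1 higher and 1 lower at an unadjusted p under 0.05 and 2 called by DESeq2. Por, the electron donor of cytochromes P450, measured 284 ± 45.8 CPM in heterozygous and 512 ± 84.9 CPM in wild-type livers (log2 fold change −0.85 ± 0.17, edgeR adjusted p = 0.0561, DESeq2 adjusted p = 0.000502). Cyp2c55 measured 5.85 ± 1.13 CPM in heterozygous and 2.82 ± 0.71 CPM in wild-type livers (1.05 ± 0.26), with a DESeq2 adjusted p of 0.0157. Cyp3a11, the main PXR-responsive P450 of mouse liver, measured 3699.8 ± 605 CPM in heterozygous and 2362 ± 1086 CPM in wild-type livers with overlapping libraries. Markers of pericentral and periportal hepatocytes, given because carriers can differ along the lobule, had median log2 fold changes of 0.00 and −0.04. Of the 8 and 7 tested, 0 were called in edgeR or DESeq2, and 1 periportal gene was lower at an unadjusted p under 0.05.

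**Figure D5:**
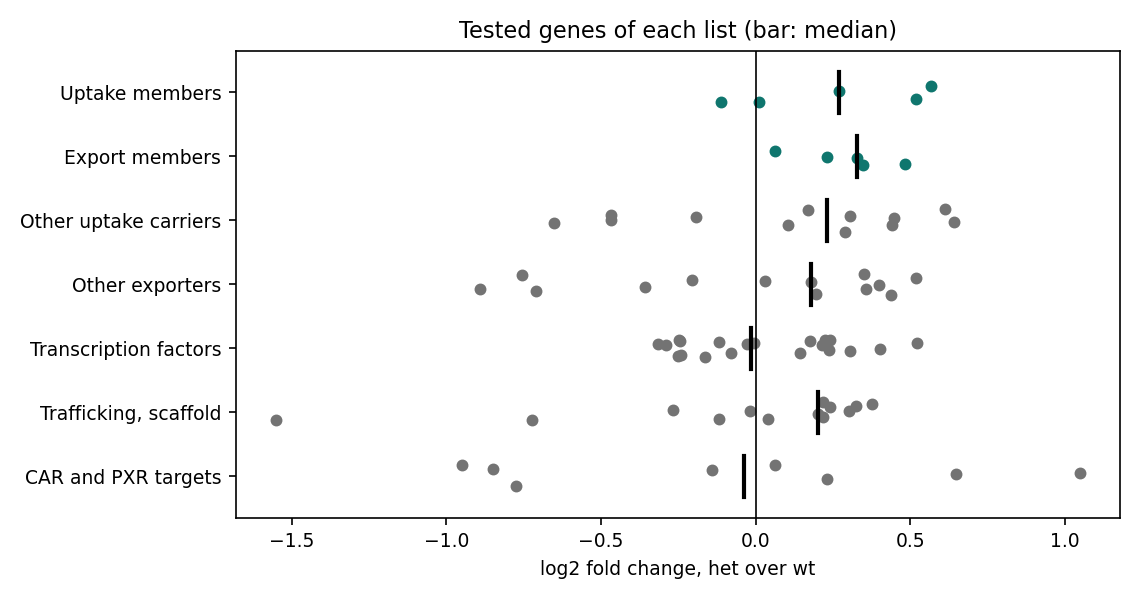
Log2 fold change of heterozygous over wild-type livers (horizontal axis) for each tested gene of 7 lists (rows); points are genes, spread vertically for legibility, and black bars are list medians. The medians of the uptake and export members are 0.27 and 0.33, and that of the transcription factors is −0.02.

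Genes most like 3 of the members over the 6 libraries were sought among 7876 tested genes with a mean of at least 10 CPM, by the same root mean square difference. For Slc10a1 these were Setd6 (0.03), Prdx6 (0.03) and Dmd (0.03), where the median over all candidates was 0.20. For Slco1a1 they were Aox3 (0.06), Igfbp2 (0.08) and Nox4 (0.08), against a median of 0.39. Aox3, an aldehyde oxidase gene, measured 1180, 1321 and 798 CPM in heterozygous livers and 891, 885 and 688 CPM in wild-type livers. For Abcb11 they were Parp6 (0.05), Tmem64 (0.05) and Sh3bgrl2 (0.06), against a median of 0.29. The likeness is a description over 6 libraries, with no test.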

How the data were processed

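Whole-liver RNA was extracted with TRIzol, and 500 ng was used for stranded mRNA libraries, per the labels' protocols. Trimmomatic 0.36, HISAT2 2.2.1.0, HTSeq 0.9.1 and build GRCm39 are named in the submitters' processing notes; the sources used here do not give the annotation, strand setting or filters. The deposited values are raw read counts per gene symbol, 1 column per sample, with no normalization by the authors. This unit was read from the values, which are whole numbers.

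The fit was made in R 4.3.3 with edgeR 4.0.16. Low counts were removed by filterByExpr with the 2 groups, libraries were scaled with TMM factors, and a robust quasi-likelihood fit (glmQLFit, then glmQLFTest) had the group as its one term. P-values were adjusted by Benjamini-Hochberg over all 12706 tested genes at 0.05. All 10 transporters passed the filter. SEs are the absolute log2 fold change over the square root of F, and log2 CPM used a prior count of 2. DESeq2 1.42.0 and limma-voom (limma 3.58.1, robust and ordinary eBayes), other scalings and filters, a non-robust fit, a replicate block and leaving out libraries were alternatives. The scripts were tested on simulated data. Exon lengths are unions over GENCODE M21 basic transcripts (build GRCm38), matched by symbol.

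Groups and replicate numbers come from the titles. The series design speaks of littermate mice, but no label ties a sample to an animal, litter or batch of its own, and the p-values therefore cover only sample-to-sample spread, which may be technical. No libraries agreed within sampling noise (within-group pairs had a chi-square of 23.5 to 88.6 per degree of freedom). Named genes were all members, of each further pathway list those called plus up to 3 with the smallest p, and the 3 genes most like Slc10a1, Slco1a1 and Abcb11. Cebpb, Clec4f, Nr1h4 and marker genes were named besides. The members, lists, rules and alternatives were chosen with earlier results of these data known. Sequences of Atp8b1 and Abcc3 are not shown.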

Additional observations from a re-analysis of the deposited data

How the results depend on the processing

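No transporter was called in any of 15 of the 16 alternatives run on the members. In DESeq2, 1 was called, Abcc2 (1 export member, 0 uptake members). DESeq2 also called 1 further uptake carrier, 3 further exporters, 1 trafficking gene and 2 CAR and PXR targets. Without a filter on low counts, 1 further uptake carrier, 1 trafficking gene and 1 CAR and PXR target passed. Leaving out 1 library gave 0 or 1 further exporters, the 1 without heterozygous replicate 3. Over all genes 74 were called, against 37 with upper-quartile scaling, 211 without the filter, 48 with at least 1 CPM in 3 samples, 534 in DESeq2, 46 in limma-voom with robust eBayes, 0 in limma-voom with ordinary eBayes (1686 at an unadjusted p under 0.05), 20 in the non-robust fit and 4 with both wild-type replicate 1 and heterozygous replicate 2 left out. Leaving out each library in turn gave 0 to 122 calls: 0, 0 and 122 for heterozygous replicates 1, 2 and 3 (1104 without replicate 1 and 1601 without replicate 2 passed an unadjusted p under 0.05), and 4, 6 and 20 for wild-type replicates 1, 2 and 3. The robust limma-voom setting was taken after the ordinary one had been seen to call 0 genes. The cause of these differences was not tested. With the replicate block 0 genes were called (1427 at an unadjusted p under 0.05). Same-numbered libraries correlated at −0.21, −0.31 and 0.19 in their deviations from the group means, and same-numbered libraries were not taken as pairs. The highest such correlation across groups, 0.42, was that of heterozygous replicate 2 with wild-type replicate 1. Under the block Slco1a1 gave 0.50 (edgeR adjusted p = 0.235) and Slco1a4 0.58 (0.226). Over single left-out libraries the log2 fold change of Slc10a1 ran from −0.0581 (without wild-type replicate 1) to 0.0927, with −0.0403 without heterozygous replicate 3, and that of Abcc3 ran from −0.113 (without wild-type replicate 1) to 0.280. With wild-type replicate 1 and heterozygous replicate 2 both left out they were −0.00533 and −0.0611. The other 8 transporters kept their sign in all 16. No scaling moved the median of all genes by more than 0.01, and the uptake to export difference ranged from −0.14 to −0.04 over left-out libraries. Depth limits Slco1a4 most, with 137 reads in its lowest library.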

Other observations

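The values here were picked after they had been seen. In both groups replicate 3 had the highest Slco1a4 and the lowest Slco1a1. Nr0b2, which encodes the repressor SHP and is a target of FXR, behaved like Slco1a4, with 42.4, 45.2 and 121 CPM in heterozygous livers and 58.0, 53.2 and 109 CPM in wild-type livers. Of the 9 male-biased liver genes tested, 4 (Cyp7b1, Hsd3b5, Selenbp2 and Susd4) were lowest in replicate 3 of both groups. Elovl3 was highest there, with 664, 711 and 795 CPM in heterozygous livers and 381, 527 and 549 CPM in wild-type livers, and the other 4 did neither. The share of all tested genes with either order was not counted, so these counts are not read as a property of male-biased genes. Selenbp2 measured 1039, 1165 and 215 CPM in heterozygous livers and 1058, 701 and 323 CPM in wild-type livers. Cyp7b1, an oxysterol hydroxylase gene, measured 299, 257 and 159 CPM in heterozygous livers and 264, 273 and 165 CPM in wild-type livers. The labels name no batch, litter or day. Over all tested genes, same-numbered libraries did not deviate together in every pair (correlations of −0.21, −0.31 and 0.19).

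Hsd3b5, a male-biased steroid dehydrogenase gene, did not overlap between groups, with 241, 210.2 and 126 CPM in heterozygous livers and 78.7, 96.4 and 75.4 CPM in wild-type livers (log2 fold change 1.20 ± 0.24, edgeR adjusted p = 0.0688, DESeq2 adjusted p = 4.03e-05). Nr1i3, which encodes CAR, measured 184, 147 and 255 CPM in heterozygous livers and 71.9, 193 and 143 CPM in wild-type livers, with its lowest value in wild-type replicate 1. Slc10a2, the apical sodium-dependent bile acid carrier of ileum and bile ducts, was highest in that same library, at 67.5 CPM, against 21.2 to 35.1 CPM in heterozygous livers and 23.7 and 33.4 CPM in the other wild-type livers.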
